A study of Papio anubis with 25 samples.

Results

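The regulated exocytosis machinery, which releases secretory granules, was followed as 9 genes through 5 tissues of the olive baboon (Papio anubis). The genes were chosen by gene symbol, as RAB3D, RAB26, RAB27B, VAMP2, VAMP8, STX3, SNAP23, STXBP2 and SYT7, and all 9 were found among the 21287 genes measured. The rule reads symbols only. The study took flash-frozen parotid, submandibular and sublingual salivary gland, pancreas and liver from 5 animals, 1 library for each tissue of each animal and 25 libraries in all. Each salivary gland was the left one. Of the animals 4 were female (baboons 1 to 4) and 1 was male (baboon 5), so the sexes could not be compared. No animal was treated, and neither ages nor genotypes are given in the sources used here. Expression was in length-corrected transcript units (TPM), a level stated relative to the whole library. Read totals are unknown, so no counting error can be attached to a value, and the errors given are the standard deviation (SD) between animals.

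Exocrine cells store digestive enzymes or saliva proteins in granules and release them at the apical membrane when a secretagogue raises calcium or cyclic AMP. Rab GTPases of the RAB3, RAB26 and RAB27 groups sit on the granule and take part in its maturation, transport and tethering. Fusion follows when a SNARE of the granule (VAMP2 or VAMP8) pairs with SNAREs of the target membrane (STX3 and SNAP23), a step that needs a Sec1/Munc18 protein such as STXBP2 and is timed by calcium sensors of the synaptotagmin family such as SYT7. Hepatocytes secrete plasma proteins mostly without such stores, so liver serves here as a tissue without zymogen or mucous granules.

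The tissue labels were checked against marker lists. The summed level of 8 pancreatic acinar genes was between 71500 and 141000 TPM in pancreas and at most 1980 TPM elsewhere. The 7 measured hepatocyte genes summed to between 49800 and 87200 TPM in liver and to at most 1290 TPM elsewhere. The salivary sections were less even. The 10 measured salivary secretory genes summed to between 1200 and 4770 TPM in liver, and the parotid, submandibular and sublingual libraries of baboon 2 (2200, 2450 and 1630 TPM) lay within that range. In 7 of the 15 gland libraries the adipocyte, lymphoid, skeletal muscle or stratified epithelium list reached 1000 TPM, lists and a minimum chosen after the values were seen. Adipocyte genes (8 listed) did so in the parotid and submandibular libraries of baboon 2 (22900 and 2900 TPM) and in the submandibular library of baboon 5 (7320 TPM). Lymphoid genes did so in the parotid library of baboon 5 (1270 TPM), skeletal muscle genes in the sublingual library of baboon 2 (74100 TPM), and stratified epithelium genes in sublingual gland of baboon 1 (86900 TPM) and of baboon 4 (25200 TPM). The other 8 gland libraries are called the 8 retained libraries below. They are parotid and submandibular gland of baboons 1, 3 and 4 and sublingual gland of baboons 3 and 5, and they are not free of other markers. Plasma cell genes reached 1080 TPM in parotid and 1190 TPM in submandibular gland of baboon 3, and 1860 and 9100 TPM in sublingual gland of baboons 3 and 5. Myeloid genes, LYZ among them, reached 1340 TPM in parotid of baboon 3 and 17400 TPM in sublingual gland of baboon 5, and acinar and hepatocyte genes reached 1730 and 1290 TPM in sublingual gland of baboon 3. The water channel gene AQP5 did not exceed its highest liver level of 3.90 TPM in 4 gland libraries, the parotid ones of baboons 2 and 5 and the sublingual ones of baboons 2 and 4. The 10 highest genes took from 16.2% to 87.7% of a gland library, while pancreas libraries had 40.3% to 46.7% and liver libraries 23.4% to 35.9%, and a library filled by a few genes has lower TPM for all others.

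RAB26 was the member with the clearest tissue pattern. It encodes a Rab GTPase of secretory granules that is known from acinar cells of the parotid gland and pancreas. In pancreas the 5 animals, in order from baboon 1 to 5, had 107, 164, 106, 107 and 154 TPM. In parotid they had 28.3, 17.4, 78.3, 32.3 and 6.89 TPM. The submandibular values were 21.9, 5.50, 44.7, 25.6 and 29.8 TPM. The sublingual libraries were the lowest, at 2.32, 2.48, 7.98, 2.76 and 12.7 TPM. Every pancreas library lay above every gland library, and each of the 3 glands was below pancreas in 5 of 5 animals. In liver RAB26 was at 17.2, 52.8, 86.5, 45.9 and 11.9 TPM, so all liver values were also below pancreas but overlapped those of parotid and submandibular gland. In bulk tissue, fewer cells of a type and less RNA per cell cannot be told apart.

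RAB26 fell from 127 ± 28.7 TPM in pancreas (SD, n = 5) to 32.6 ± 27.4 TPM in parotid, which is a log2 fold change of -2.29 on the log2(TPM + 1) scale (SE 0.58, limma adjusted p = 0.0204). That scale, used for every fold change below, understates the change of low genes. In submandibular gland RAB26 fell by 2.49 (SE 0.58, limma adjusted p = 0.0103), to 25.5 ± 14.2 TPM. In sublingual gland it fell by 4.501 (SE 0.58, limma adjusted p = 9.14e-06), to 5.65 ± 4.60 TPM. Against the equally weighted mean of the 3 glands the difference was -3.10 (SE 0.47, limma adjusted p = 7.67e-05). Pancreas was higher than liver by 1.85 (SE 0.58, limma adjusted p = 0.0256), and all 5 animals showed this direction. The gland against liver difference of -1.24 (SE 0.47, limma adjusted p = 0.0653) did not pass, and it passed without baboon 5 (-1.61, limma adjusted p = 0.0104). The sublingual call and that for the mean of the 3 glands held under every alternative run. The parotid call was lost without any 1 of baboons 1, 2, 4 and 5 (limma adjusted p from 0.0557 to 0.0746), in the 8 retained libraries (-1.48, adjusted p = 0.055), with library weights (-1.26, adjusted p = 0.0613) and without the 4 gland libraries low in AQP5 (-1.63, adjusted p = 0.212). The submandibular call was lost without baboon 1, 2 or 4 (limma adjusted p from 0.0554 to 0.0731) and the pancreas against liver call without baboon 1, 4 or 5 (limma adjusted p from 0.0642 to 0.139).

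RAB26 went with library features in parotid, but not evenly in the other glands. The 2 parotid libraries low in AQP5 held the lowest parotid values (6.89 and 17.4 TPM, against 28.3 to 78.3 TPM in the other 3). That split was not particular to RAB26. In TPM the same 2 libraries also lay below the other 3 for RAB27B, and above them for RAB3D, VAMP2, STX3 and SNAP23. The splits above the other 3 depended on scaling. After TMM scaling, which discounts the few dominant genes, the 2 libraries stayed below for RAB26 and RAB27B. They then also lay below for RAB3D (5.71 and 4.99, against 10.8 to 37.6) and VAMP2 (68.0 and 58.8, against 75.4 to 93.9). For STX3 and SNAP23 they overlapped the other 3. For RAB26 the submandibular library of baboon 2, where adipocyte genes were high, held the lowest value of its tissue. That of baboon 5, with more adipocyte signal (7320 against 2900 TPM), held the second highest. In sublingual gland no such split of RAB26 was seen, as the library of baboon 1 was high in AQP5 and lowest in RAB26. Islet genes summed to between 576 and 13800 TPM in pancreas, and RAB26 was high both in the library with the least (164 TPM in baboon 2) and in that with the most (154 TPM in baboon 5). The part of cell content in the gland values was not tested.

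RAB3D, a Rab GTPase on the surface of zymogen granules, separated pancreas from liver and was low in liver. Its pancreas levels were 42.5, 14.1, 21.4, 25.8 and 13.6 TPM for baboons 1 to 5, and its liver levels were 2.80, 1.10, 2.55, 1.65 and 6.10 TPM, with no overlap. RAB3D was higher in pancreas than in liver by 2.68 (SE 0.52, limma adjusted p = 0.000414), in 5 of 5 animals and under every alternative run. In parotid it was at 8.67, 14.1, 11.9, 12.8 and 13.1 TPM and in submandibular gland at 13.0, 5.27, 6.99, 7.95 and 13.5 TPM. All of these but the submandibular library of baboon 2 exceeded the highest liver library, of baboon 5. RAB3A, the neuronal relative of RAB3D, was at 1.02 to 1.60 TPM in pancreas and 1.02 to 2.38 TPM in liver. The log2 ratio of RAB3D to RAB3A, taken on TPM + 1, ran from 2.51 to 4.43 in pancreas and from -0.56 to 1.81 in liver, without overlap. With RAB3A low in both tissues, the ratio largely restates the RAB3D levels.

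The sublingual libraries split into 2 high values for RAB3D, 32.96 TPM in baboon 1 and 24.9 TPM in baboon 5, and 3 low ones between 1.82 and 2.80 TPM, which lay within the range of liver. RAB3D was higher in the mean of the 3 glands than in liver by 1.499 (SE 0.42, limma adjusted p = 0.0121), in 5 of 5 animals and under every alternative run. Against pancreas the glands differed by -1.18 (SE 0.42, limma adjusted p = 0.0963), which did not pass. It passed with TMM scaling, a library scaling that discounts the few dominant genes (-1.62, limma adjusted p = 0.0117), with median-of-ratios scaling (-1.63, limma adjusted p = 0.00997) and in the 8 retained libraries (-1.15, limma adjusted p = 0.0478). Sublingual gland differed from pancreas by -1.55 (limma adjusted p = 0.0581), and this passed without baboon 5 (-2.14, limma adjusted p = 0.024) and with TMM scaling (-2.30, limma adjusted p = 0.00472). All submandibular values were below all pancreas values, but the difference of -1.20 did not pass (SE 0.52, limma adjusted p = 0.305).

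RAB27B, a Rab GTPase that recruits granule effectors and is known from secretory and barrier epithelia, was low except in some sublingual libraries. These had 12.8, 0.219, 0.216, 13.6 and 4.63 TPM for baboons 1 to 5. The 2 highest, of baboons 1 and 4, were those with stratified epithelium genes at 86900 and 25200 TPM, and the part of that tissue in the values was not tested. Parotid held 1.63, 0.455, 4.21, 2.06 and 0.973 TPM and submandibular gland 2.07, 1.10, 1.61, 2.56 and 0.798 TPM. Pancreas held 0.212 to 1.22 TPM and liver 0.202 to 0.499 TPM. Only its gland means reached the 1 TPM needed for testing, so its calls above pancreas or liver support nothing by themselves. RAB27B was higher in the mean of the 3 glands than in liver by 1.23 (SE 0.41, limma adjusted p = 0.0363), in 5 of 5 animals. This call was lost without baboon 1, 4 or 5 (limma adjusted p = 0.158, 0.135 and 0.0737), without the replicate block (adjusted p = 0.0504), with only the compared tissues in the fit (adjusted p = 0.0587) and with no filter on low values (adjusted p = 0.0604). In the 8 retained libraries RAB27B was higher than in pancreas in parotid (1.35, limma adjusted p = 0.0301) and over the 3 glands (1.09, limma adjusted p = 0.0188), while in all libraries these differences were 0.79 and 1.03 (limma adjusted p = 0.38 and 0.135). The sublingual difference from pancreas was 1.55 (limma adjusted p = 0.0523), and it passed without baboon 2 (2.08, adjusted p = 0.013) and without baboon 3 (1.93, adjusted p = 0.0387). In the 8 retained libraries, which keep sublingual gland of baboons 3 and 5 but not the 2 rich in stratified epithelium genes, it was 0.76 (limma adjusted p = 0.19).

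**Figure D1:**
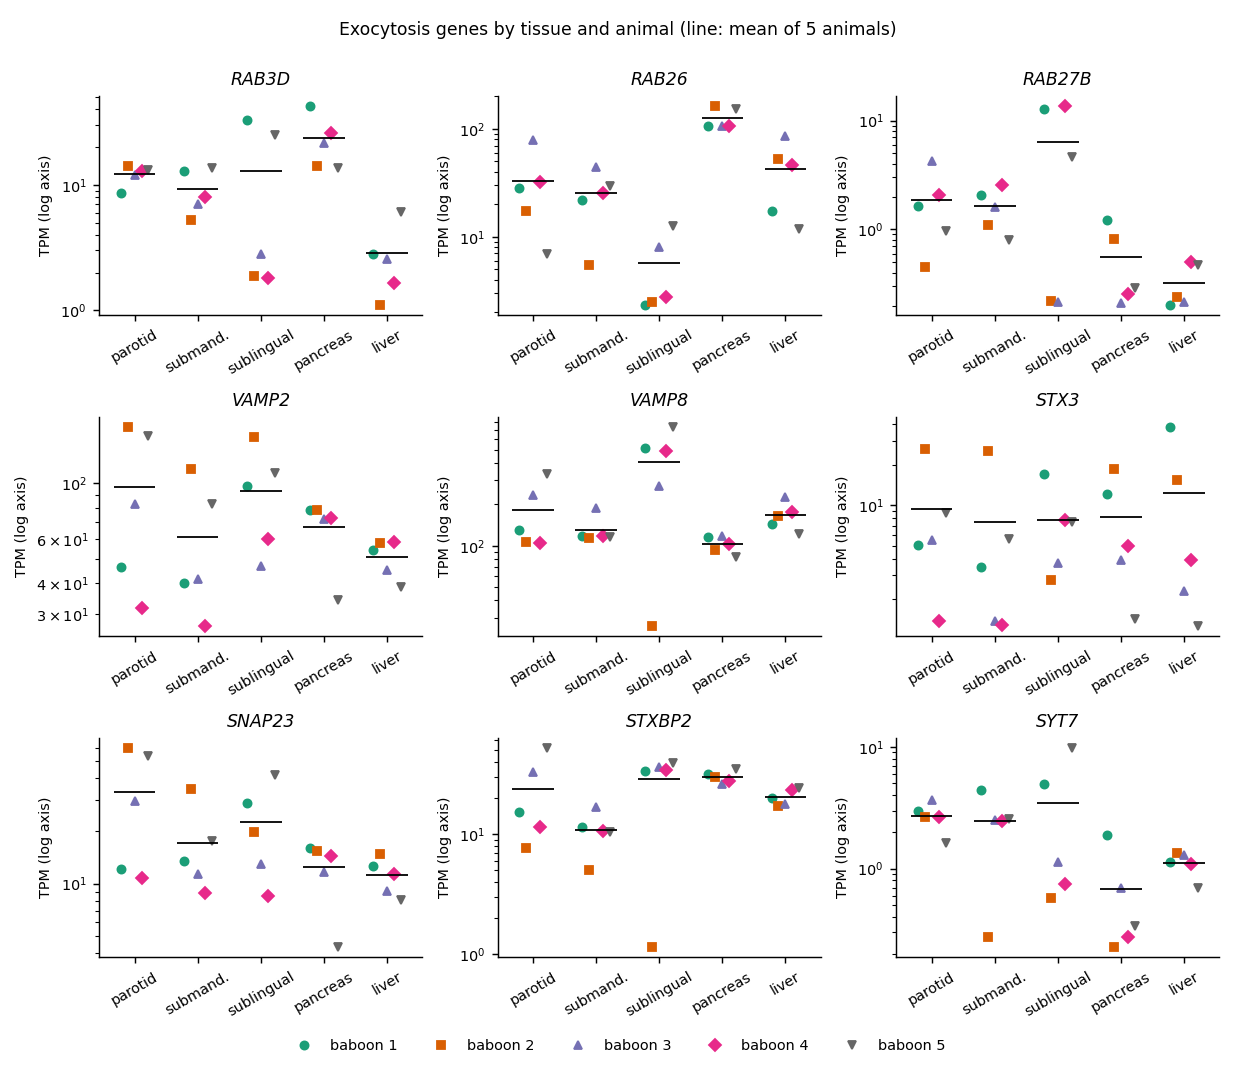
Levels of the 9 exocytosis genes in TPM (log axis) by tissue, with 1 point per library, colour and shape for the animal and a line at the mean of 5 animals. RAB26 is highest in all 5 pancreas libraries (106 to 164 TPM), RAB3D separates pancreas from liver, and VAMP8 and STXBP2 are low in the sublingual library of baboon 2.

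Among the SNAREs, VAMP8 was the most abundant of the 9 genes in every tissue except pancreas, where RAB26 was higher. VAMP8 is the granule SNARE that acts in zymogen and mucin granule fusion. In sublingual gland it was at 513, 25.9, 273, 486 and 732 TPM for baboons 1 to 5, so the library of baboon 2, with skeletal muscle genes at 74100 TPM, held the lowest of all 25 values and the other 4 held higher values than every pancreas and liver library. In parotid VAMP8 was at 131, 106, 233, 105 and 330 TPM and in submandibular gland at 117, 114, 188, 118 and 116 TPM. Pancreas had 83.3 to 118 TPM and liver 122 to 228 TPM, without overlap. In limma none of the 6 comparisons passed for VAMP8. The difference of sublingual gland from pancreas was 1.37 (SE 0.57, limma adjusted p = 0.109), and it was 2.17 without baboon 2 (limma adjusted p = 0.00277) and 1.97 in the 8 retained libraries (adjusted p = 0.00307). Of sublingual gland, the retained libraries keep baboons 3 and 5 alone. Pancreas differed from liver by -0.67 (SE 0.57, limma adjusted p = 0.479), a sign that turned with TMM and with median-of-ratios scaling (0.002 and 0.04).

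VAMP2, a granule SNARE shared with synaptic vesicles, was more even. It was at 46.3, 168, 82.7, 31.8 and 154 TPM in parotid and at 39.96, 114, 41.5, 26.9 and 82.9 TPM in submandibular gland. Sublingual gland had 97.7, 153, 46.6, 59.9 and 110 TPM, pancreas 78.0, 78.3, 71.9, 73.0 and 34.4 TPM, and liver 38.6 to 58.2 TPM. In each gland the library of baboon 2 was the highest and that of baboon 5 came next. Adipocyte, lymphoid or muscle genes were high in these libraries except the sublingual one of baboon 5. In the 2 parotid ones the 10 highest genes took 18.0% and 24.4% of the total, against 66.2% to 87.7% in the other 3, and the part of this in the VAMP2 values was not tested. No comparison passed for VAMP2, with log2 differences between -0.27 and 0.50. After TMM scaling the parotid values drew together to between 58.8 and 93.9, and VAMP2 was then higher in pancreas than in liver by 1.02 (limma adjusted p = 0.0234).

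The balance between the 2 granule SNAREs was read within each library, as a ratio of TPM + 1, which a library's scaling hardly touches at these levels. The log2 ratio of VAMP8 to VAMP2 averaged 0.66 in pancreas (SD 0.38, n = 5) and ran from 0.25 to 1.25. In liver it averaged 1.68 (SD 0.36, n = 5) and ran from 1.41 to 2.31. The 2 ranges did not overlap, and the ratio was lower in pancreas than in the liver of the same animal in 5 of 5 animals. Of single genes, VAMP8 included, 38.5% did not overlap between these tissues, and that share was not worked out for ratios. In the glands the ratio was 1.02 ± 0.96 for parotid, 1.25 ± 0.97 for submandibular and 1.62 ± 2.33 for sublingual libraries. The library of baboon 2 was the lowest of each gland, at -0.66, -0.01 and -2.52, and the only one in which VAMP2 exceeded VAMP8. Without baboon 2 the sublingual ratio had a mean of 2.66. VAMP3, a close relative of VAMP2 that serves constitutive and recycling traffic in most cells, was at 11.1 ± 5.35 TPM in pancreas and 13.8 ± 3.97 TPM in liver. It ranged from 9.94 to 263 TPM in parotid, with the highest value in baboon 2.

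**Figure D2:**
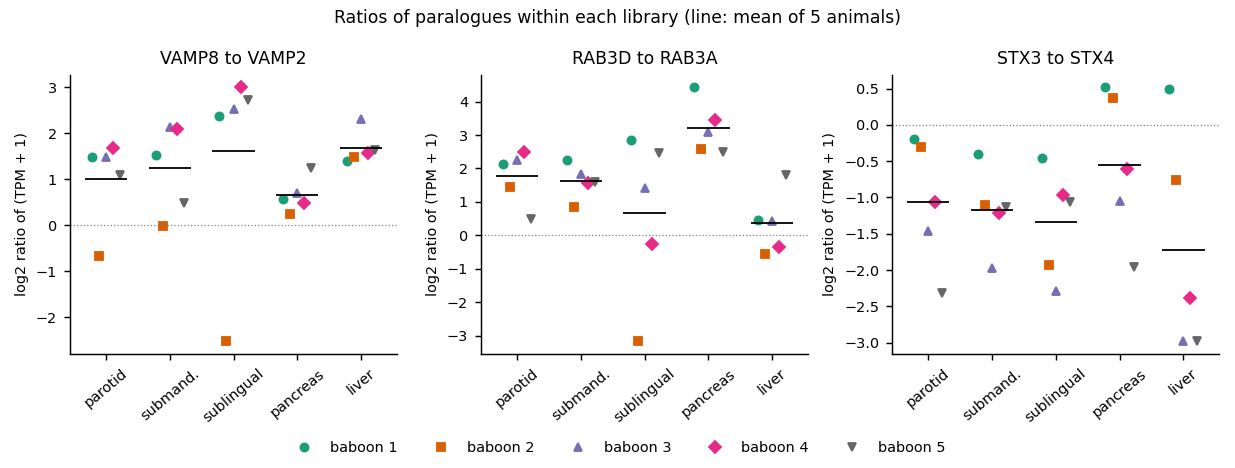
Log2 ratios of TPM + 1 for pairs of related genes within each library, by tissue, with 1 point per library and a line at the mean of 5 animals; the dotted line at 0 marks equal levels. The VAMP8 to VAMP2 ratio is lower in the 5 pancreas libraries (0.25 to 1.25) than in the 5 liver libraries (1.41 to 2.31), and in the glands the lowest VAMP8 to VAMP2 ratios are those of baboon 2.

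STX3, the syntaxin of the apical membrane, varied more between animals than between tissues. In liver it was at 38.3, 15.4, 2.30, 3.90 and 1.25 TPM for baboons 1 to 5, and in pancreas at 12.03, 18.7, 3.88, 4.97 and 1.41 TPM. In both tissues baboons 1 and 2 were above the other 3. In submandibular gland baboon 2 was again the highest (25.5 TPM, against 1.29 to 5.61 TPM) and in parotid as well (26.3 TPM, against 1.37 to 8.80 TPM), whereas in sublingual gland it was the lowest (2.77 TPM, against 3.71 to 17.1 TPM). No tissue comparison passed for STX3, and its log2 differences lay between -0.42 and 0.09 with SEs of 0.52 to 0.64. With library weights STX3 was called lower in submandibular gland than in pancreas (-1.34, limma adjusted p = 0.00169). The animal term itself was tested after these values were seen. Over pancreas and liver STX3 had a limma F of 17.8 (adjusted p = 0.054), rank 122 of 12453 genes, of which 0.867% passed. Over all 25 libraries the limma adjusted p was 0.234, and 0.4% of 14991 genes passed. STX4, the syntaxin of the basolateral membrane, was higher than STX3 in all 15 gland libraries, in 4 of 5 liver libraries and in 3 of 5 pancreas libraries. Its liver levels were 16.8 to 27.0 TPM.

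SNAP23, the widely expressed relative of the neuronal SNAP25, was at 12.1, 59.6, 29.8, 10.8 and 53.7 TPM in parotid. The submandibular range was 8.86 to 34.7 TPM and the sublingual range 8.49 to 42.0 TPM. It was at 4.32 to 16.1 TPM in pancreas and 8.07 to 14.8 TPM in liver. The ranges of all 5 tissues overlapped. The 2 highest parotid values belonged to baboons 2 and 5, as for VAMP2, and TMM scaling brought the 5 parotid libraries to between 20.4 and 31.8. SNAP23 passed in none of the 6 comparisons, and the furthest from 0 was parotid against pancreas (1.15, SE 0.48, limma adjusted p = 0.212). That comparison passed with library weights (1.01, limma adjusted p = 0.0418), and the glands against liver with median-of-ratios scaling (1.002, limma adjusted p = 0.00366). SNAP25 did not exceed SNAP23 in any library, and was at most 3.41 TPM in the glands and pancreas apart from 10.03 TPM in the parotid library of baboon 2, where 8 nerve genes, SNAP25 among them, summed to 878 TPM.

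STXBP2 encodes the Sec1/Munc18 protein Munc18-2, which partners STX3 and SNAP23-containing complexes in secretory cells. Its levels were close together in pancreas (31.7, 29.7, 26.1, 27.5 and 34.6 TPM) and in liver (19.9, 16.9, 17.9, 23.2 and 24.1 TPM), and these 2 groups did not overlap. In sublingual gland it was at 33.4, 1.15, 36.0, 34.2 and 38.7 TPM, where the library of baboon 2 stood far below the other 4. Submandibular gland had 11.5, 4.99, 16.7, 10.7 and 10.49 TPM, all below pancreas. Parotid had 15.3, 7.66, 32.7, 11.5 and 51.8 TPM. STXBP2 passed in none of the 6 comparisons. The difference of submandibular gland from pancreas was -1.46 (SE 0.52, limma adjusted p = 0.158), and it passed with TMM scaling (-1.57, limma adjusted p = 0.0313) and in the 8 retained libraries (-1.13, limma adjusted p = 0.0159).

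SYT7, a high-affinity calcium sensor of granule and lysosome fusion, was low in all 5 tissues. Pancreas had 1.87, 0.226, 0.689, 0.277 and 0.336 TPM and liver 0.692 to 1.33 TPM. Parotid had 2.99, 2.66, 3.66, 2.65 and 1.63 TPM and submandibular gland 4.43, 0.274, 2.52, 2.48 and 2.55 TPM. Sublingual gland had 4.93, 0.572, 1.14, 0.747 and 9.77 TPM, with the 2 high values in the same animals as for RAB3D. SYT7 was higher in each of the 3 glands than in pancreas in 5 of 5 animals, but none of the 6 comparisons passed. Library weights, with all libraries kept, called it higher than pancreas in parotid, submandibular and sublingual gland (1.35, 1.20 and 1.10, limma adjusted p = 0.00287, 1.67e-05 and 0.035). A pseudocount of 0.1 did so in parotid (2.17, limma adjusted p = 0.0456). The difference of the 3 glands from pancreas was 1.07 (SE 0.34, limma adjusted p = 0.0565). It was 1.22 with library weights (limma adjusted p = 5.69e-05) and 1.87 with a pseudocount of 0.1 (limma adjusted p = 0.0209). In the 8 retained libraries it was 1.46 (limma adjusted p = 0.00413), and each single gland then passed too, with differences of 1.39 for parotid, 1.38 for submandibular and 1.60 for sublingual gland (limma adjusted p = 0.0352, 0.0311 and 0.0179). For sublingual gland that rests on baboons 3 and 5 alone, at 1.14 and 9.77 TPM. In the 8 retained libraries the glands were also higher than liver, by 1.06 (limma adjusted p = 0.0118). SYT1, the synaptic calcium sensor, was at most 1.80 TPM in any library and at most 0.259 TPM in pancreas and liver.

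The genome-wide fit puts these counts beside those of all 14991 genes tested, those whose mean reached 1 TPM in some tissue. Calling a gene required an adjusted p (Benjamini-Hochberg) below 0.05 and a log2 difference of 1 or more in size. All 9 members passed the filter, RAB27B through its gland levels alone and SYT7 through glands and liver. Of the 9, 1 (RAB26) was called lower than pancreas in parotid, where 2.4% of all genes were, in submandibular gland (2.81% of all genes), in sublingual gland (2.49%) and in the mean of the 3 glands (3.16%). None was called higher than pancreas in any of these 4 comparisons, against 1.41%, 1.27%, 6.97% and 3.28% of all genes, and at an unadjusted limma p under 0.05 those higher were SNAP23 and SYT7 in parotid, SYT7 in submandibular gland, RAB27B, VAMP8 and SYT7 in sublingual gland, and RAB27B and SYT7 in the mean of the 3. Besides RAB26, those lower at that unadjusted p were RAB3D in submandibular and sublingual gland and in the mean of the 3, and STXBP2 in submandibular gland and in that mean. The share of all genes under that unadjusted p was not worked out, so these members cannot be set beside the shares of called genes. Of the 9, 2 (RAB3D and RAB26) were called higher in pancreas than in liver, where 2.86% of all genes were. Again 2 of 9 (RAB3D and RAB27B) were called higher in the 3 glands than in liver, where 5% of all genes were. RAB27B entered the tests only through the glands, where it is high, so its results against liver and pancreas support nothing by themselves. No member was called lower in pancreas than in liver (14.6% of all genes were) or lower in the mean of the 3 glands than in liver (13.2%). At an unadjusted limma p under 0.05 RAB26 was lower in that mean than in liver. For single glands against liver, RAB26 was called lower in sublingual gland (-2.65, limma adjusted p = 0.00187). RAB3D was called higher in parotid (1.88, limma adjusted p = 0.0134) and RAB27B in sublingual gland (1.74, limma adjusted p = 0.0179). Shares of all genes were not worked out for these single glands.

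**Figure D3:**
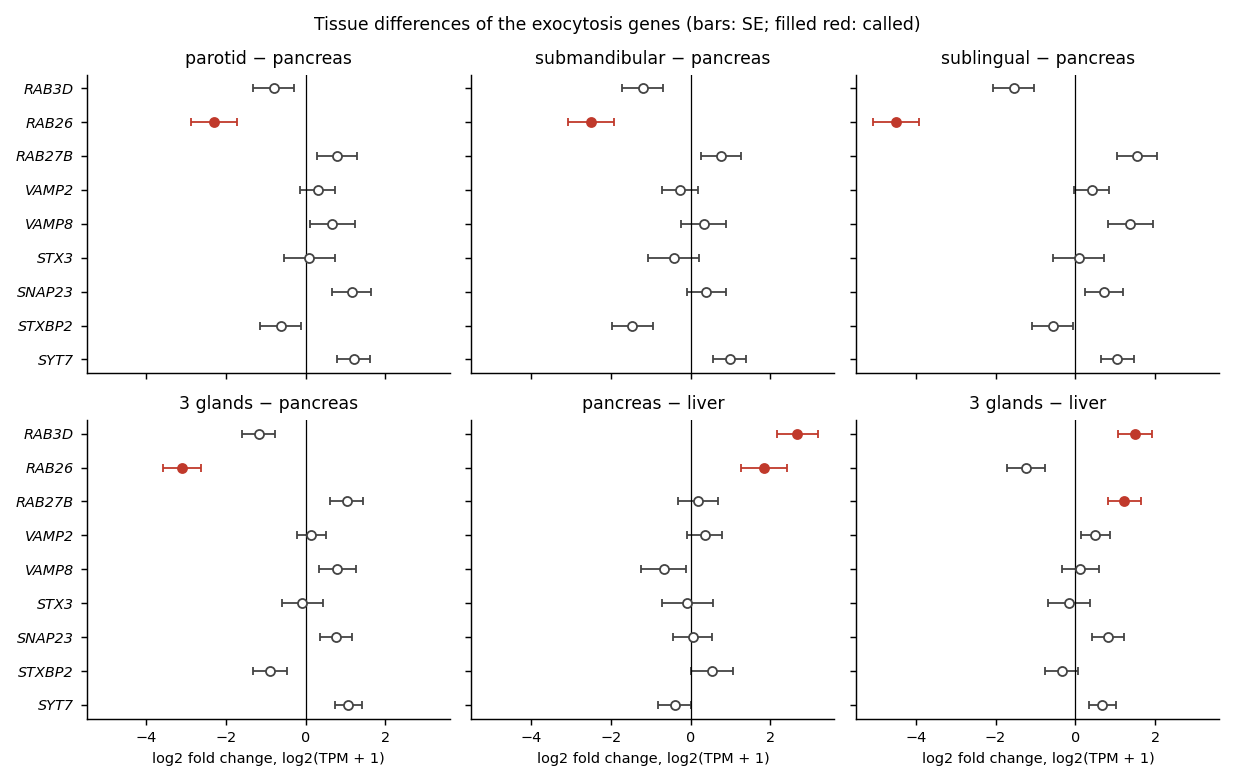
Log2 fold changes of the 9 genes in 6 tissue comparisons on the log2(TPM + 1) scale, with bars for the SE from limma; filled red points were called (adjusted p below 0.05 and a log2 difference of 1 or more in size). RAB26 is called lower in each gland than in pancreas (-2.29, -2.49 and -4.501), and RAB3D and RAB26 higher in pancreas than in liver (2.68 and 1.85).

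As a group the 9 genes had median log2 differences from pancreas of 0.30 for parotid, -0.27 for submandibular and 0.41 for sublingual gland, beside 0.45, 0.17 and 0.63 for all genes tested. Pancreas against liver gave a median of 0.20 for the members and -0.44 for all genes, and the glands against liver 0.50 and 0.00. The medians of all genes depend on scaling, and with TMM scaling they were 0.05, 0.03, 0.10, -0.02 and 0.07 in the same order, with member medians of -0.18, -0.43, -0.39, 0.67 and 0.69. The share of all called genes that were higher in the first tissue moved as well, from 73.6% to 38.8% for sublingual gland against pancreas, from 50.9% to 36.8% for the 3 glands against pancreas, from 16.3% to 39.0% for pancreas against liver and from 27.5% to 38.3% for the glands against liver. Groups that did not overlap were counted too. Between pancreas and liver these were RAB3D, RAB26, STXBP2 and VAMP8, 4 of 9 beside 38.5% of all genes. Between submandibular gland and pancreas they were RAB3D, RAB26 and STXBP2, all lower in the gland, 3 of 9 beside 4.11% of all genes. For parotid, for sublingual gland and for the 15 gland libraries together against pancreas it was RAB26 alone, 1 of 9, where 2.72%, 2.58% and 1.58% of all genes were lower without overlap.

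Ordered by mean level, RAB3D and RAB26 and STXBP2 were highest in pancreas. RAB27B, VAMP8 and SYT7 were highest in sublingual gland, VAMP2 and SNAP23 in parotid and STX3 in liver. Of the 36 pairs of neighbouring tissues in these 9 orders, 1 was called in limma, RAB26 in pancreas above liver. The other neighbours were not called after adjustment over all genes, and for 7 of them the log2 means ran against the order of the TPM means. Some uncalled differences were large beside their SE. Examples are RAB26 in submandibular above sublingual gland (2.01, SE 0.58, limma adjusted p = 0.186) and RAB3D in submandibular gland above liver (1.48, SE 0.52, limma adjusted p = 0.0505). No member was called between any 2 of the 3 glands, where 0% of genes were called between parotid and submandibular gland, 0.113% between parotid and sublingual gland and 0.0667% between submandibular and sublingual gland.

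Shares of the summed TPM of the 9 genes compare tissues without a scaling factor, but a gene with a high share lowers the shares of the others. The sum was 373 ± 37.0 TPM in pancreas (SD, n = 5), 308 ± 64.8 TPM in liver, 393 ± 169 TPM in parotid, 266 ± 48.3 TPM in the submandibular and 587 ± 303 TPM in the sublingual gland. RAB26 made up 34.5 ± 8.63% of it in pancreas, with a lowest library of 26.3%, against highest libraries of 16.3% for parotid, 14.2% for submandibular gland, 2.07% for sublingual gland and 22.0% in liver. RAB3D made up 6.23 ± 2.77% in pancreas and 1.07 ± 1.03% in liver. VAMP8 made up 27.7 ± 3.91% in pancreas, 54.0 ± 3.80% in liver and 61.2 ± 27.5% in sublingual gland, where the library of baboon 2 had 12.5% and VAMP2 took 73.7% of the sum. STX3 ranged from 0.585% to 13.2% in liver, the widest relative range of the 9 genes in that tissue.

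**Figure D4:**
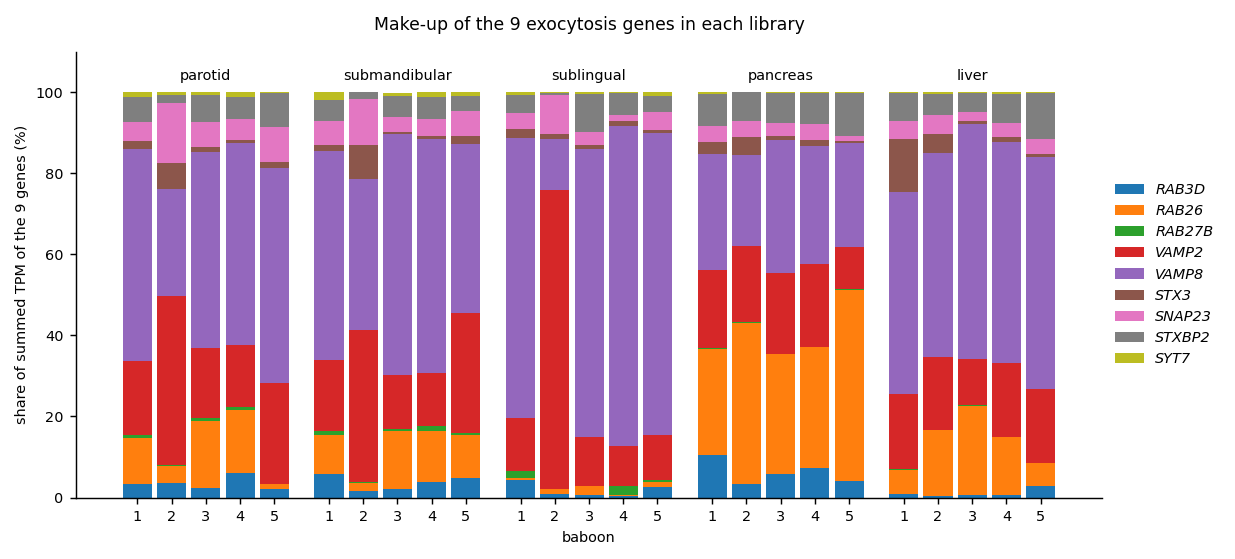
Share of the summed TPM of the 9 genes taken by each gene (percent) in each of the 25 libraries, grouped by tissue and numbered by baboon. RAB26 takes 26.3% to 47.1% in pancreas and no more than 22.0% in any other library, and the sublingual library of baboon 2 differs from the other 4 by its VAMP2 share of 73.7%.

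The members did not vary as one block. After removing tissue means, VAMP8 and STXBP2 varied together over the 25 libraries (Pearson r = 0.904, Spearman rho = 0.697), and r was 0.754 without the sublingual libraries of baboons 2 and 5 and 0.937 with TMM scaling. VAMP2 and SNAP23 did so too (r = 0.894, rho = 0.884), with r = 0.718 after TMM scaling. RAB3D and SYT7 had r = 0.766, which was 0.651 without the sublingual libraries of baboons 1 and 5. RAB3D and RAB26, the 2 granule Rabs called higher in pancreas than in liver, had r = -0.02 within tissues and 0.45 with TMM scaling. STX3 and SNAP23 had r = 0.696, but 0.265 with TMM scaling. These are descriptions, since 5 libraries share each animal and all values share the library total.

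Genes whose levels ran most nearly parallel to each member over all 25 libraries were sought among 8575 named genes whose mean reached 5 TPM in some tissue. For RAB3D they were PLEKHB1 (r = 0.841) and FAM174B (r = 0.805). RAB26 had weaker partners, VWA5B2 (r = 0.758) and NRTN (r = 0.756), both highest in pancreas. RAB27B followed PAX9 (r = 0.933) and RNF39 (r = 0.913), both highest in sublingual gland. VAMP8 ran with TRAF4 (r = 0.881), VAMP2 with PDRG1 (r = 0.918) and FOXO4 (r = 0.916), and SNAP23 with PRKAB1 (r = 0.942) and ZMYND11 (r = 0.937). STXBP2 was nearest to PCP2 (r = 0.873) and NOXA1 (r = 0.866), STX3 to TMEM41B (r = 0.816) and MRFAP1L1 (r = 0.805), and SYT7 to DEPTOR (r = 0.864) and ENTPD3 (r = 0.813). The points share animals and library totals, so these values describe likeness only.

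The wider pathway was read from a list of 124 other genes (Rab GTPases, their regulators and effectors, SNAREs, SNARE regulators, calcium sensors and the exocyst), of which 116 were measured and 91 tested. Of the 91, 2 were called higher and 0 lower in parotid than in pancreas, 0 and 2 in submandibular gland, and 8 and 2 in sublingual gland. The shares of all genes called higher and lower were 1.41% and 2.4%, 1.27% and 2.81%, and 6.97% and 2.49%. In the mean of the 3 glands these counts were 3 and 2, beside 3.28% and 3.16% of all genes. Between pancreas and liver 3 were higher and 2 lower in pancreas, beside 2.86% and 14.6% of all genes. The glands against liver gave 5 higher and 2 lower, beside 5% and 13.2%. Against pancreas their median log2 values were 0.49 (parotid), 0.20 (submandibular) and 0.73 (sublingual), close to the 0.45, 0.17 and 0.63 of all genes.

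Among Rab effectors, RPH3AL (Noc2), which binds RAB3 and RAB27 proteins on granules and is needed for exocrine release, was called higher in pancreas than in liver and lower in the 3 glands than in pancreas. Its mean was 9.47 TPM in pancreas (SD 3.18, n = 5) and 2.51 TPM in liver (SD 0.78, n = 5), and pancreas was higher by 1.55 (SE 0.51, limma adjusted p = 0.0368). In the 3 glands it fell by 1.83 against pancreas (SE 0.42, limma adjusted p = 0.00719). In parotid RPH3AL was at 0.781, 14.0, 1.62, 0.329 and 5.80 TPM, so baboons 2 and 5, the libraries low in AQP5, were the high ones, and baboon 2 exceeded every pancreas library. SYTL1, a synaptotagmin-like effector of RAB27, was higher in pancreas than in liver by 2.64 (SE 0.58, limma adjusted p = 0.00154), at 24.0 ± 5.38 against 3.07 ± 1.34 TPM, and higher in the glands than in liver by 1.68. SYTL3, a relative of SYTL1, was higher in the glands than in pancreas by 1.15 (SE 0.23, limma adjusted p = 0.00204), and its pancreas mean was 0.136 TPM. SYTL3 passed the filter only through the glands, where it is high. RAB25, an epithelial Rab of recycling endosomes, was higher than in liver both in pancreas (1.98, limma adjusted p = 0.0395) and in the glands (2.06, limma adjusted p = 0.00738).

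Among SNAREs and their regulators, VAMP3 was higher in the glands than in pancreas (1.88, SE 0.53, limma adjusted p = 0.0313) and than in liver (1.49, limma adjusted p = 0.0482). Its parotid and submandibular values were highest in baboon 2 (263 and 141 TPM) and baboon 5 (64.9 and 59.2 TPM), libraries rich in adipocyte or lymphoid genes, against 9.94 to 39.6 TPM in the others. Over the 8 retained libraries the differences were 1.03 from pancreas (limma adjusted p = 0.0426) and 0.65 from liver (limma adjusted p = 0.117). In sublingual gland VAMP3 was at 37.1 to 99.4 TPM, above every pancreas and liver library (at most 18.0 and 19.1 TPM). Its difference from pancreas there was 2.34 (SE 0.65, limma adjusted p = 0.027), and 2.28 in the 8 retained libraries (limma adjusted p = 0.00334). STXBP6 (amisyn), which binds SNARE complexes, was lower in the glands than in pancreas (-1.65, SE 0.41, limma adjusted p = 0.0124), and STXBP5 (tomosyn), which competes with VAMP proteins, was lower in submandibular gland (-1.01, SE 0.29, limma adjusted p = 0.04997). RAB11A and RAB10, of recycling and basolateral traffic, exceeded their pancreas levels in sublingual gland by 2.36 and 2.05 (limma adjusted p = 0.0382 and 0.0377). Their highest sublingual values, 320 and 234 TPM for RAB11A and 280 and 142 TPM for RAB10, were those of baboons 1 and 4, with stratified epithelium genes at 86900 and 25200 TPM. The differences were 1.55 and 1.15 in the 8 retained libraries (limma adjusted p = 0.00524 and 0.0317). The calcium sensor SYT2 was lower in pancreas than in liver (-1.28, SE 0.22, limma adjusted p = 0.000137), at 0.0454 against 1.63 TPM, and it passed the filter only through liver. Over the alternatives all of these kept their direction, and SYTL1 and SYT2 in pancreas against liver and SYTL3 in the glands against pancreas kept their calls. The others lost theirs under 1 to 9 of the 14 or 15 alternatives that gave a value. The call of VAMP3 in the glands against pancreas was lost in 7 of 15, and that of RPH3AL in submandibular gland in 7 of 15.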

How the data were processed

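RNA of 25 tissue libraries was sequenced as paired reads on an Illumina HiSeq, per the labels' protocols. The authors deposited TPM values per gene from kallisto, as the table's name and the submitters' processing notes state; its version, index, build and annotation are not given in the sources used here. Every library sums to the same total, which keeps no record of depth. All 9 members matched a symbol in the RefSeq gene table of Panubis1.0, used for names only.

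Linear models of log2(TPM + 1) used limma 3.58.1 under R 4.3.3, with moderated variances that follow a mean trend. Tissue and the replicate block (animal) entered a single model of the 25 libraries, and p-values were adjusted over 14991 genes within each comparison. Libraries with the same number come from 1 animal. Over all genes, same-animal libraries deviated together from their tissue means (mean correlation 0.161, against -0.035 between animals). The fit was tested on simulated data. TMM and median-of-ratios factors were computed on TPM without weights. Descriptions used Python 3.11.15, pandas 2.3.3 and numpy 2.4.6, and figures matplotlib 3.10.9.

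The members, lists and rules were chosen with earlier results of these data known. The text names the 9 members, paralogues set beside them, the 2 most similar genes of each, and up to 3 highest and 3 lowest called pathway genes per comparison, of which some are not reported here.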

Additional observations from a re-analysis of the deposited data

Results flagged for a closer look

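In each tissue the highest or lowest of the 5 values of a member was checked for a gap to its nearest neighbour of more than 0.71 of the range. Of 45 such groups of 5 values, 5 held a value that far apart. For normally distributed values that cut flags about 1 in 20 groups. The rate for TPM values was not worked out, and the groups share animals and libraries. VAMP2 in the pancreas of baboon 5 was at 34.4 TPM, below a next value of 71.9 TPM. VAMP8 in the submandibular gland of baboon 3 was at 188 TPM, above a next value of 118 TPM. STX3 in the submandibular gland of baboon 2 was at 25.5 TPM, above a next value of 5.61 TPM. STXBP2 in the sublingual gland of baboon 2 was at 1.15 TPM, below a next value of 33.4 TPM. SYT7 in the pancreas of baboon 1 was at 1.87 TPM, above a next value of 0.689 TPM. Of the 5 values, 2 belong to gland libraries of baboon 2, in which muscle or adipocyte genes were high, and the part of those tissues was not tested. The pancreas library of baboon 5 also held the lowest pancreas values of RAB3D, VAMP8, STX3 and SNAP23.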

How the results depend on the processing

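Of 803 fold changes of members recomputed under alternatives, 687 kept direction and side of the threshold, 19 lost a call, 50 gained one and 47 changed sign, none of them a called one (limma adjusted p from 0.334 to 1). The 4 calls that held under every alternative run were those of RAB26 in sublingual gland and in the 3 glands against pancreas, and of RAB3D in pancreas and in the glands against liver. Depth is unknown, which limits low genes such as RAB27B and SYT7. For the other changes the cause was not tested.

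Without the replicate block, 1 member was called in the glands against liver (2 with it), and no other count of called members moved by over 1.5 times. That count was also 1 with only the compared tissues fitted and 1 with no filter. TMM scaling called 2 members in submandibular gland, 3 in sublingual gland and 3 in the glands against pancreas, and 4 neighbour pairs; median-of-ratios called 2, 2, 3 and 3. Neighbour pairs numbered 2 with tissues fitted alone and 2 at a mean of at least 5 TPM. A pseudocount of 0.1 called 2 members in parotid, 2 in sublingual gland, 2 in the glands and 3 pairs. Library weights called 3 in parotid (all higher), 5 in submandibular gland, 5 in sublingual gland, 4 in the glands and 5 pairs. Without the AQP5-low libraries these were 0, 2, 4, 3 and 2. In the 8 retained libraries, an alternative chosen after seeing the data, they were 2, 3, 3, 4 and 5. Leaving out 1 animal gave 0 to 1 in parotid, 0 to 1 in submandibular gland, 1 to 3 in sublingual gland, 1 to 2 in pancreas against liver, 1 to 2 in the glands against liver and 0 to 2 pairs.

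Sign changes, as log2 differences, were as follows. With TMM scaling the values were VAMP2 -0.18, STX3 -0.36 in parotid against pancreas, VAMP2 -0.39, STX3 -0.59, SNAP23 -0.024 in sublingual against pancreas, VAMP2 -0.33 in glands against pancreas, VAMP8 0.0021, STX3 0.47 in pancreas against liver. With median-of-ratios scaling the values were VAMP2 -0.22, STX3 -0.39 in parotid against pancreas, VAMP2 -0.37, STX3 -0.58, SNAP23 -0.0097 in sublingual against pancreas, VAMP2 -0.35 in glands against pancreas, VAMP8 0.041, STX3 0.51 in pancreas against liver. With library weights the values were SNAP23 -0.17 in submandibular against pancreas, VAMP2 -0.21 in glands against pancreas. Without the AQP5-low libraries the values were VAMP2 -0.21, STX3 -0.38 in parotid against pancreas, STXBP2 0.10 in sublingual against pancreas, VAMP2 -0.0397 in glands against pancreas. In the 8 retained libraries the values were VAMP2 -0.37, STX3 -0.63 in parotid against pancreas, SNAP23 -0.012 in submandibular against pancreas, STXBP2 0.10 in sublingual against pancreas, VAMP2 -0.32 in glands against pancreas. Leaving out 1 animal at a time turned some signs, over ranges of STX3 -0.35 to 0.70, STXBP2 -0.83 to 0.25 in sublingual against pancreas, STX3 -0.54 to 0.0804, VAMP2 -0.24 to 0.42 in glands against pancreas, STX3 -0.24 to 0.30, SNAP23 -0.016 to 0.26 in pancreas against liver, STX3 -0.66 to 0.38, STXBP2 -0.58 to 0.0401, VAMP8 -0.18 to 0.46 in glands against liver, STX3 -0.39 to 0.45, VAMP2 -0.16 to 0.67 in parotid against pancreas, VAMP2 -0.65 to 0.015 in submandibular against pancreas.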
